A study of Mus musculus with 29 samples.

Results

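The comparison described here set digit tips of nerve-injured mice at day 14 after amputation against those at day 7. Its members were identified by their labels, as the 3 libraries of each day from mice with spared nerve injury (SNI) in the time-course count table, and make up 6 of the 29 libraries of the series. The series asked whether the mouse digit tip regrows without sensory nerve input. In SNI mice 2 branches of the left sciatic nerve, the tibial and the common peroneal, were cut, and the sham mice had the same operation with the nerve left whole. All time-course mice then lost the digit tip of the left hindlimb by a cut through the third phalanx, 5 days after that surgery. The tissue beyond the metacarpophalangeal joint was taken at day 7, 14 or 21, the nail was removed, and poly(A) RNA of the whole tissue was sequenced. Sham digits at day 7 and day 14 (3 libraries each) serve below as the uninjured-nerve reference. A second count table holds 12 further libraries from SNI mice, with amputated and unamputated digits at day 7 and day 14 (3 libraries each); its unamputated digits carry the same tissue label and a day after amputation. SNI leaves the sural branch in place, so the limb keeps part of its nerve supply. The labels used here give no strain, age or sex. They call the libraries biological replicates; the p-values below measure the spread between these samples only.

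A digit tip regrows in overlapping stages. Neutrophils and macrophages enter the wound, osteoclasts erode the stump of the terminal bone, epidermis closes over it, and a blastema of mesenchymal cells then forms new bone, dermis and connective tissue beneath a regrowing nail. Schwann cells cut off from their axons lose their myelin programme and take on a repair state, which is why a nerve lesion is a common test of what the blastema needs from nerves.

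The 6 SNI libraries held between 38184080 and 56809440 counts. Levels are given as CPM, counts scaled to a total of 1000000 per library and corrected by the TMM factors of edgeR. Cell type markers of the labelled tissue were present in all 6: the bone gene Col1a1 lay between 51.6 and 12379 CPM and the hard keratin Krt31 between 12.6 and 592 CPM. Libraries of the same day differed as much as libraries of different days. The share of tested genes more than 2-fold apart was 40.2% between day 7 replicates 1 and 2, 26.6% between replicates 2 and 3, and 8.12% between replicates 1 and 3. Among the day 14 libraries it was 20.2%, 28.4% and 7.90%, and the closest pair of all, at 6.12%, was day 7 replicate 3 with day 14 replicate 2. Day 7 replicate 2 was 18.4% (day 14 replicate 3) to 52.4% (day 14 replicate 1) from the other libraries, and the results below are given with and without it. Without it, the pairs that held day 14 replicate 1 lay at 9.59% to 28.4% and all other pairs at 6.12% to 15.4%. The long transcripts in particular differed: the median log2 deviation of the longest 20% of transcripts from their time-course median ran from -1.10 in day 7 replicate 2 to 0.42 in day 14 replicate 1. Ribosomal protein genes took 17.9% of the counts in day 7 replicate 2, 8.24% and 11.2% in the other day 7 libraries, and 5.16%, 9.74% and 11.4% in day 14 replicates 1 to 3. In the sham libraries of both days this share was 4.81% to 7.53%.

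**Figure D1:**
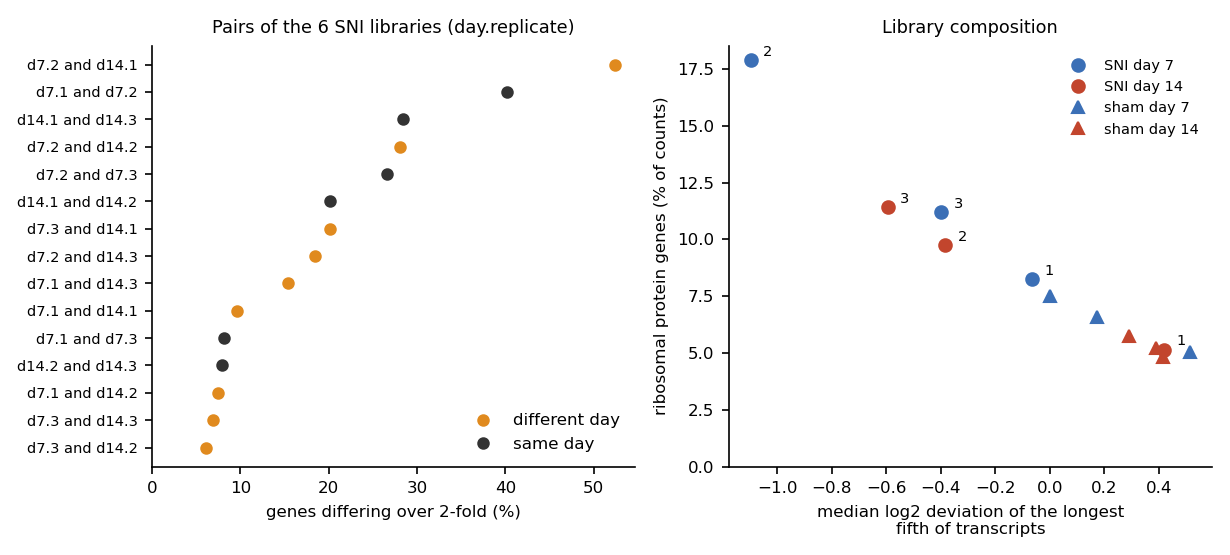
Left, percentage of tested genes more than 2-fold apart for the 15 pairs of the 6 SNI libraries, split into pairs of the same day and of different days. Right, ribosomal protein share of all counts (percent) against the median log2 deviation of the longest 20% of transcripts, with SNI libraries as circles numbered by replicate, sham libraries as triangles, day 7 in blue and day 14 in red. Day 7 replicate 2 lies at 17.9% and -1.10, and same-day pairs span 7.90% to 40.2%.

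No gene passed the test between day 14 and day 7 in SNI digits. Of 16084 genes tested, edgeR's quasi-likelihood test called 0 higher (0% of all) and 0 lower (0%) at an adjusted p under 0.05, with a smallest adjusted p of 0.876, and 487 genes (3.03%) had an unadjusted p under 0.05. DESeq2 called 1 gene, Gm2506, which stood at 6.46 CPM in day 14 replicate 2 and at 0.0218 CPM or less in the other SNI libraries. Limma-voom, run with a quality weight per library, called 14, all with a positive weighted log2 fold change. For 1 of them, Hist1h2bk, the edgeR log2 fold change was -0.33. The 14 included Gjc3 and Ugt8a of the Schwann cell myelin list. Those quality weights were 0.171 for day 7 replicate 2 and 0.227 for day 14 replicate 1, against 0.600 to 4.71 in the other 4 SNI libraries of these days. Without day 7 replicate 2, edgeR called 0 of 16036 genes and 169 (1.05%) had an unadjusted p under 0.05. The values below are therefore descriptions of 6 libraries, and no gene of the SNI comparison is called changed. The median log2 fold change over all tested genes was 0.04, with 53.7% of genes positive, and 0.01 with 52.7% positive without day 7 replicate 2. In 464 genes (2.88%) all day 14 libraries lay above all day 7 libraries, and in 328 (2.04%) all lay below. The corresponding shares in sham digits were 8.11% and 9.39%, where 48.6% of genes had a positive log2 fold change, edgeR also called 0 genes higher or lower and 315 (1.96%) had an unadjusted p under 0.05. All edgeR tests of the time course shared 1 estimate of the spread over its 17 libraries, the day 21 ones included. Sham day 21 replicate 1 also deviated, with a ribosomal protein share of 21.2% and a quality weight of 0.099.

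The 12 genes with the smallest p among those whose day 14 libraries all lay above the day 7 libraries, with a mean of at least 1 CPM, are given first. Epyc, a small proteoglycan of growing cartilage, stood at 4.30, 3.38 and 4.48 CPM in day 7 replicates 1 to 3 and at 11.7, 5.30 and 13.5 CPM in day 14 replicates 1 to 3. The log2 fold change came to 1.33 ± 0.34 (SE), and the edgeR adjusted p was 0.876 here and for each of the 24 genes with the smallest p named below. Tspan11, a tetraspanin membrane protein, was at 15.4, 12.0 and 12.8 CPM and then at 22.3, 17.4 and 28.5 CPM (0.76 ± 0.19). Replicates 1 and 3 were the high day 14 libraries for both genes. Has2, a hyaluronan synthase, was at 6.13, 3.62 and 6.94 CPM and then at 11.5, 7.38 and 13.2 CPM (0.94 ± 0.30), with day 7 replicate 2 lowest. Thy1, a surface protein of fibroblasts and neurons, was at 125, 63.1 and 87.6 CPM and then at 127, 131 and 161 CPM, so that day 7 replicate 1 came close to the lowest day 14 library. Its log2 fold change of 0.61 was 0.35 without day 7 replicate 2. H19, an imprinted non-coding RNA of growing tissue, was at 16.2, 20.2 and 13.4 CPM and then at 25.0, 26.8 and 21.0 CPM (0.55 ± 0.19). For H19 day 7 replicate 2 was the nearest to day 14, and the log2 fold change without it was 0.67.

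The other genes of this set included Cyp26a1, an enzyme that breaks down retinoic acid, with 0.501, 0.517 and 0.731 CPM at day 7 and 2.19, 1.21 and 1.03 CPM at day 14. Its log2 fold change was 1.34 ± 0.40, and 1.22 without day 7 replicate 2. Aqp2, a water channel, stood at 0.561, 0.639 and 0.488 CPM and then at 1.10, 0.952 and 3.25 CPM, with day 14 replicate 3 far above its group (1.65, and 0.87 without that library). Prune2 was at 2.76, 2.49 and 1.80 CPM and then at 4.31, 4.76 and 5.98 CPM (1.09 ± 0.38). The remaining 4 genes of this set, Gpr37l1, Gjc3, Mbp and Egfl8, are described with the nerve genes below.

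**Figure D2:**
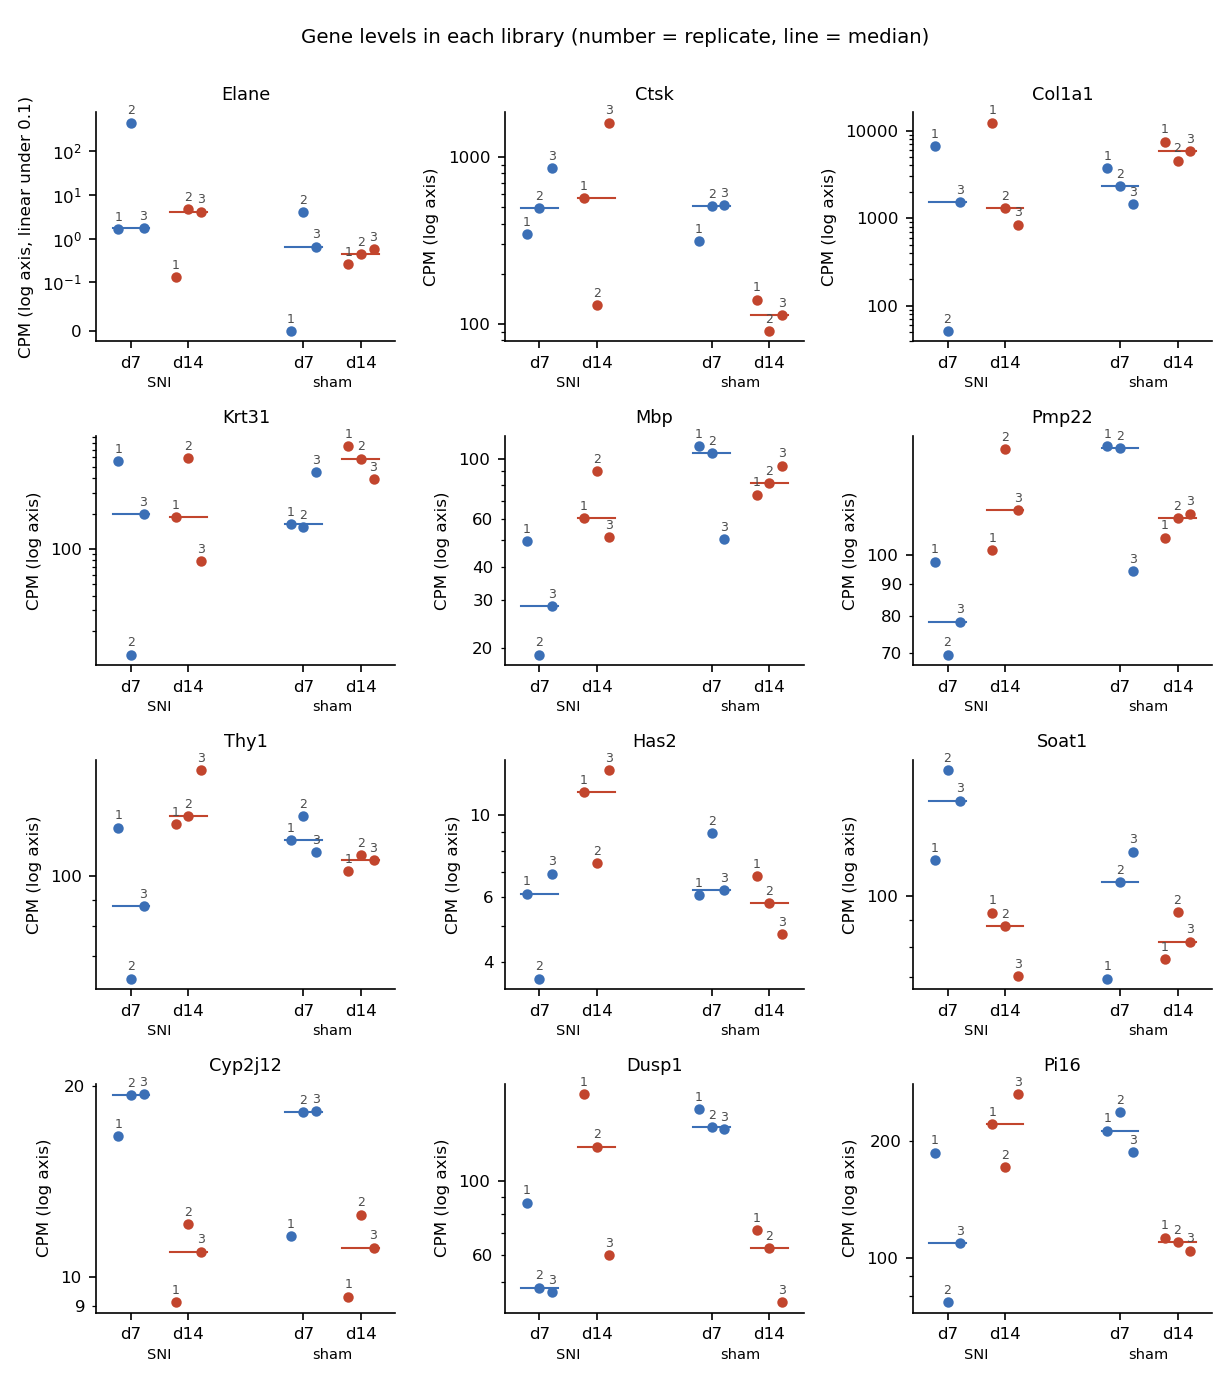
CPM of 12 named genes in every SNI and sham library at day 7 (blue) and day 14 (red), with the number giving the replicate and the line the group median, on a log axis (the axis of Elane is linear under 0.1 CPM). Has2, Thy1 and Mbp lie higher in every SNI day 14 library than in any SNI day 7 library, Soat1 and Cyp2j12 lie lower, and Elane, Col1a1, Krt31 and Ctsk overlap between the days.

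The genes with the smallest p among those lower in every day 14 library also numbered 12. Fpr1, Retnlg, Mmp8, Ltf, Ifitm6, Itgb2l, Ngp, Cd177 and Nfe2 are genes of neutrophils and their marrow precursors, and each was far higher in day 7 replicate 2 than anywhere else. Retnlg, a secreted protein of mature neutrophils, stood at 4.61, 401 and 3.32 CPM at day 7 and at 0.247, 1.05 and 0.807 CPM at day 14. Its log2 fold change was -7.62, and -2.56 without day 7 replicate 2; that the days did not overlap was a condition for naming the gene. Sham Retnlg was at 1.61, 0.856 and 0.776 CPM at day 7 and at 0.0932, 0.324 and 0.0962 CPM at day 14 (-2.59), again with no overlap.

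The other 3 genes, Soat1, Cyp2j12 and Acot5, encode enzymes and had more even day 7 values. Soat1, which esterifies cholesterol, was at 117, 174 and 152 CPM at day 7 and at 93.0, 87.7 and 70.3 CPM at day 14 (-0.82 ± 0.22; -0.73 without day 7 replicate 2). Cyp2j12, a cytochrome P450, was at 16.7, 19.4 and 19.4 CPM and then at 9.11, 12.1 and 11.0 CPM (-0.79 ± 0.20, and -0.79 without that library). Acot5, an acyl-CoA thioesterase, was at 9.81, 13.9 and 11.2 CPM and then at 5.38, 4.48 and 8.01 CPM (-0.97 ± 0.28). The days did not overlap for any of them, and the deviating day 7 library was the highest or level with the highest in all 3. Sham Cyp2j12 was at 11.6, 18.2 and 18.2 CPM and then at 9.29, 12.5 and 11.1 CPM, so that day 7 replicate 1 fell within the sham day 14 range. The difference between the SNI and the sham change was -0.24 ± 0.29 for Cyp2j12 and -0.57 ± 0.31 for Soat1, and neither passed the test (edgeR adjusted p = 1.00).

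Day 7 replicate 2 was set apart by RNA of granulocyte precursors. The 10 genes with the largest ratio in this library to the higher of the other 2 day 7 libraries were Prtn3, Camp, Elane, Ctsg, Ms4a3, Ngp, Mpo, Chil3, Ifitm6 and Cd177, with ratios from 224 down to 103. Prtn3, Elane, Ctsg and Mpo encode the proteins of azurophil granules, which are made in the promyelocytes of the marrow, and Camp, Ngp and Ltf those of granules made later. Elane stood at 1.62, 456 and 1.73 CPM at day 7 and at 0.132, 4.79 and 4.12 CPM at day 14. Mpo was at 4.97, 673 and 4.01 CPM and then at 0.510, 13.7 and 13.2 CPM. In both genes the replicates of day 14 that were not lowest lay above the other day 7 libraries, and the log2 fold change of Elane was -5.67 with and 0.80 without day 7 replicate 2, that of Mpo -4.63 and 0.98. The summed level of the 14 neutrophil genes was 296, 16707 and 565 CPM at day 7 and 796, 92.8 and 903 CPM at day 14. Of these 14 genes 1 had a positive log2 fold change with a median of -5.45, and without day 7 replicate 2 the count was 7 of 14 with a median of 0.04. In sham digits the 14 genes were all negative, with a median of -1.71 and summed levels of 319, 357 and 305 CPM at day 7 and 99.2, 53.6 and 79.0 CPM at day 14. In whole tissue, fewer cells of a type and less RNA per cell cannot be told apart.

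The azurophil genes Elane and Prtn3 lie close together on chromosome 10, and their promoters are shown because they were among the genes that set this library apart. The sequences are the 250 bases before each start site in RefSeq on GRCm38.p6, Elane at chr10:79886062-79886311 and Prtn3 at chr10:79879417-79879666, both on the plus strand and written 5′ to 3′. Capitals mark GAGGAA, a core that ETS-family factors bind, searched on both strands (GAGGAA or TTCCTC). It was found in 23.3% of 32851 mouse promoter windows of this length, so that a match describes the letters only.
Elane: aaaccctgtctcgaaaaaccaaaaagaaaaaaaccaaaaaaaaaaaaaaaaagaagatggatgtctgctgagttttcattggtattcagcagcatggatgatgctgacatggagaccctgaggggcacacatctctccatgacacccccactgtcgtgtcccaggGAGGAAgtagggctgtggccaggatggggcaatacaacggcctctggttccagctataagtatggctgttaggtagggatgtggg
Prtn3: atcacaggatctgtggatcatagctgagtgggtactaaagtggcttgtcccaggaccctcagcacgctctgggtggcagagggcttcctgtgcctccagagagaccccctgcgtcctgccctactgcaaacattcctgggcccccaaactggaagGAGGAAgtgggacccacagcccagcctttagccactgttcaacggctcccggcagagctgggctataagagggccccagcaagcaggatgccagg

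Red cell genes stood apart less. Of 11 erythroid genes tested, 0 had a positive log2 fold change in SNI digits, with a median of -1.45, and 2 without day 7 replicate 2, with a median of -1.14. Alas2, the first enzyme of haem synthesis in red cell precursors, was at 8.99, 32.2 and 20.6 CPM at day 7 and at 4.12, 9.54 and 6.79 CPM at day 14, with overlap through day 7 replicate 1. In sham digits the median was -1.29. The alpha globin gene Hba-a1 ran from 163 to 909 CPM while the beta globin gene Hbb-bs was at 0.365 CPM or less in all 6 libraries. Each globin has a near-identical copy that shares its reads, so both values are uncertain.

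**Figure D3:**
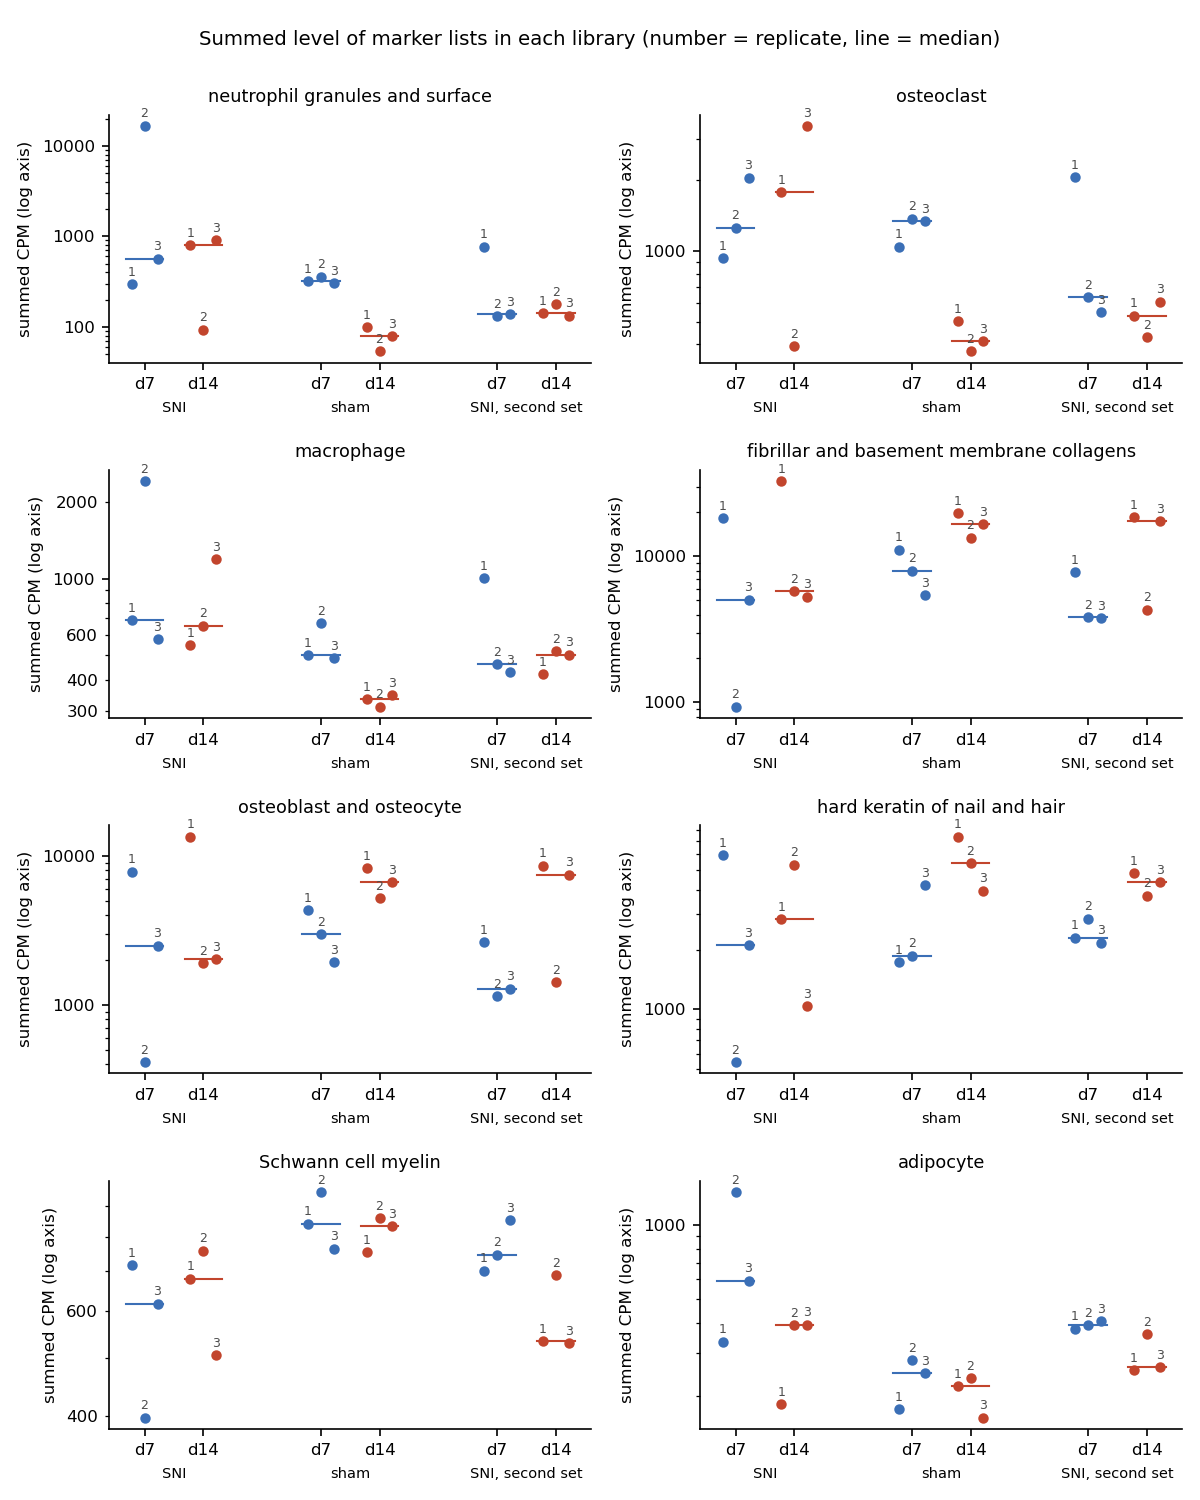
Summed CPM of 8 gene lists in each library on a log axis, for SNI and sham digits of the time course and for amputated SNI digits of the second set, which was normalised separately. Day 7 is blue, day 14 is red, numbers are replicates and lines are group medians. The neutrophil sum of day 7 replicate 2 is 16707 CPM, and the sham osteoclast sums of day 7 lie above all those of day 14 while the SNI sums overlap.

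Osteoclast genes had lower values at day 14 in sham digits and mostly higher values in SNI digits, and no gene was called in either or in the difference. Of 14 osteoclast genes, 13 had a positive log2 fold change in SNI digits with a median of 0.47, and in no gene were the days without overlap. The median was 0.23 with 13 of 14 positive once day 7 replicate 2 was left out. Leaving out single libraries moved this median from -0.26 (without day 14 replicate 3) to 0.85 (without day 14 replicate 2). Ctsk, the protease with which osteoclasts digest bone collagen, stood at 344, 493 and 861 CPM at day 7 and at 567, 129.7 and 1613 CPM at day 14. Day 14 held both the lowest and the highest library, and the log2 fold change was 0.44 ± 0.64. Sham Ctsk was at 314, 508 and 518 CPM at day 7 and at 140.1, 91.0 and 114 CPM at day 14, with every day 14 library lower (-1.96). Acp5, the acid phosphatase used to stain osteoclasts, was at 206, 297 and 521 CPM and then at 298, 97.3 and 779.6 CPM in SNI digits, and the spread again followed the libraries rather than the day. Sham Acp5 was at 224, 319.7 and 331 CPM and then at 87.7, 73.6 and 70.0 CPM. Dcstamp, needed for the fusion of osteoclast precursors, was at 2.86, 5.11 and 8.80 CPM and then at 7.92, 0.669 and 22.1 CPM in SNI digits.

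The sham osteoclast median was -1.83, with 12 of 14 genes lower in every day 14 library (9.39% of all genes). All 14 genes had a higher log2 fold change in SNI than in sham digits, with a median difference of 2.26, and 5 had an unadjusted p under 0.05 (1.37% of all genes). The difference was 2.40 ± 0.92 for Ctsk and 2.12 ± 0.78 for Acp5, and edgeR called neither (adjusted p = 1.00). Without day 7 replicate 2 the median difference was 2.13. These genes share the osteoclast as their source and are not independent of each other.

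Macrophage genes showed a smaller gap of the same sign. The difference between the SNI and the sham change had a median of 0.32, with 10 of 15 genes positive (52.9% of all genes). Without day 7 replicate 2 its median was 1.09, with 12 of 15 positive (55.3% of all genes). Of 15 genes 8 were positive in SNI digits with a median of 0.02, and 13 without day 7 replicate 2 with a median of 0.31. The median was -0.36 without day 14 replicate 3. In sham digits 3 were positive, with a median of -0.74 and 10 lower in every day 14 library (9.39% of all genes). Mrc1, the mannose receptor of resident macrophages, was at 34.3, 27.7 and 22.7 CPM at day 7 and at 33.7, 38.0 and 56.9 CPM at day 14 in SNI digits, where only day 7 replicate 1 reached the day 14 range. In sham digits it was at 42.0, 51.5 and 25.0 CPM and then at 22.8, 23.3 and 25.5 CPM. The difference of the 2 changes was 1.33 ± 0.37 and was not called (edgeR adjusted p = 1.00). Lyz2, the lysozyme of macrophages and neutrophils, was at 240.3, 1800.3 and 190.5 CPM and then at 155, 222 and 451 CPM, with the single high value in the granulocyte-rich library. The 23 chemokine genes had a median of -0.55 with 8 positive, and of 0.50 with 16 positive without day 7 replicate 2, while it was -1.38 without day 14 replicate 3. The sham chemokine median was -0.98 with 0 of 23 positive. The 11 inflammatory cytokine genes had a median of 0.13 in SNI digits, 0.52 without day 7 replicate 2, -0.30 without day 14 replicate 3, and -0.91 in sham digits.

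Collagen values were higher at day 14 in the mean, and the size of that difference rested on single libraries. All 23 fibrillar and basement membrane collagens had a positive log2 fold change with a median of 0.94, and 22 did without day 7 replicate 2 with a median of 0.43. In none of the 23 were the days free of overlap. Leaving out single libraries moved the median from -0.40 (without day 14 replicate 1) to 2.30 (without day 7 replicate 1). Col1a1, the main collagen of bone and dermis, stood at 6641, 51.6 and 1509.9 CPM at day 7 and at 12379, 1294 and 844 CPM at day 14. The order was set by day 14 replicate 1 at the top and day 7 replicate 2 at the bottom, and the log2 fold change was 0.82 ± 1.43, or 0.20 without day 7 replicate 2. Col3a1, the collagen of soft connective tissue, was at 2194, 365 and 611 CPM and then at 4871, 1001 and 1403 CPM. Its lowest and its highest library were the same as for Col1a1. The same 2 libraries had the lowest and the highest level of long transcripts, at -1.10 and 0.42, and collagen transcripts are long. With a correction for transcript length the collagen median was 0.60, and 0.25 with day 7 replicate 2 also left out; the part of the library differences in these values was not tested further.

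The osteoblast and osteocyte list had a median of 0.27 with 11 of 15 positive, which was -0.30 with 3 of 15 without day 7 replicate 2. Leaving out single libraries moved this median from -0.32 (without day 14 replicate 1) to 1.26 (without day 7 replicate 1). Bglap, the osteocalcin of mature osteoblasts, was at 206, 1.70 and 48.6 CPM at day 7 and at 137, 166 and 14.8 CPM at day 14. Sp7, the transcription factor that commits cells to the osteoblast fate, was at 16.2, 0.943 and 5.19 CPM and then at 16.8, 5.07 and 5.19 CPM. Neither gene separated the days in SNI digits. In sham digits Bglap was at 20.9, 50.6 and 32.8 CPM and then at 169, 145 and 94.1 CPM, with every day 14 library higher, and the sham median of the list was 0.84 with 7 genes free of overlap and higher (8.11% of all genes). Cartilage genes were positive in 13 of 14 (median 0.57; 8 of 14 and 0.25 without day 7 replicate 2). Their median ran from 0.051 (without day 14 replicate 1) to 1.22 (without day 7 replicate 1). All 11 tendon and ligament genes were positive, also without that library, and their medians were 0.76 and 0.37, and 1.49 without day 7 replicate 1. The 12 fibroblast genes had medians of 0.53 and 0.24, and 0.85 without day 7 replicate 1. Over 17 genes of blastema mesenchyme and distal limb patterning the median was 0.30 and all were positive. The median was -0.08 and 7 were positive without day 7 replicate 2, and 0.91 without day 7 replicate 1. Prrx1, a transcription factor of limb mesenchyme, was at 92.3, 40.6 and 59.8 CPM and then at 109, 96.2 and 97.4 CPM, with its lowest value again in day 7 replicate 2 (0.65 ± 0.25; 0.36 without it and 1.01 without day 7 replicate 1) and no overlap. Msx1, a marker of the blastema and nail bed, was at 46.8, 12.0 and 19.3 CPM and then at 31.8, 32.4 and 25.6 CPM, and the days overlapped.

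Hard keratins, the structural proteins of nail plate and hair, and the keratin-associated proteins that crosslink them had different values over the days in SNI and in sham digits, with no gene called. Of 18 hard keratin and nail matrix genes 12 had a positive log2 fold change in SNI digits with a median of 0.04, and 0 did without day 7 replicate 2 with a median of -0.52. In sham digits all 18 were positive with a median of 1.11. Krt31 stood at 555, 12.6 and 197 CPM at day 7 and at 185, 592 and 79.2 CPM at day 14 in SNI digits. Each SNI day held 1 high library, day 7 replicate 1 and day 14 replicate 2. Sham Krt31 was at 163, 154 and 452 CPM and then at 745, 587 and 389.6 CPM, so that sham day 7 replicate 3 lay above 1 day 14 library. Krt82, a keratin of the hair cuticle, was at 115, 1.70 and 35.6 CPM and then at 40.9, 65.1 and 27.2 CPM in SNI digits. Day 7 replicate 2 was the lowest library for both genes. Leaving out single libraries moved the median of the list from -0.56 (without day 14 replicate 2) to 1.34 (without day 7 replicate 1).

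Of 53 keratin-associated protein genes 21 were positive in SNI digits with a median of -0.08, and 1 was without day 7 replicate 2 with a median of -0.68. All 53 were positive in sham digits with a median of 1.79, and in 36 of them every sham day 14 library lay above every day 7 library (8.11% of all genes). The difference between the 2 changes was negative in all 53, with a median of -1.89, or -2.43 without day 7 replicate 2. Over all genes this difference was positive in 52.9%, or 55.3% without that library. An unadjusted p under 0.05 was reached by 4 of 53 with all libraries (1.37% of all genes) and by 37 of 53 without day 7 replicate 2 (1.81%), and edgeR called 0 in both fits. The summed level was 5121, 257 and 1522 CPM at day 7 and 2025, 3476 and 1036 CPM at day 14 in SNI digits. In sham digits it was 1228, 1269.8 and 1967 CPM and then 7659.8, 4309.5 and 2261 CPM. SNI day 7 replicate 1 was thus above all 3 sham day 7 libraries, and the SNI and sham sums of day 14 overlapped, SNI replicate 2 lying above sham replicate 3. The gap to sham widened on leaving out day 7 replicate 2, the SNI library with the lowest sum. Day 7 replicate 1 had the highest, and without it the hard keratin median in SNI digits moved the other way, to 1.34. The value for keratin-associated proteins without replicate 1 is not given here. Many of these genes are near-identical copies, which share reads and cannot be counted as separate evidence, and the nail was removed before extraction.

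Wound keratins followed other libraries. Krt16, a keratin of activated epidermis, stood at 236, 3432 and 223 CPM at day 7 and at 2216, 200.4 and 447 CPM at day 14. The high libraries were day 7 replicate 2 and day 14 replicate 1, and the log2 fold change was -0.44 ± 0.99 with the former and 2.01 without it. The wound keratinocyte list had a median of -0.09 with 5 of 13 positive. It was 0.61 with 11 of 13 without day 7 replicate 2, -0.44 without day 14 replicate 1, and 0.49 in sham digits.

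**Figure D4:**
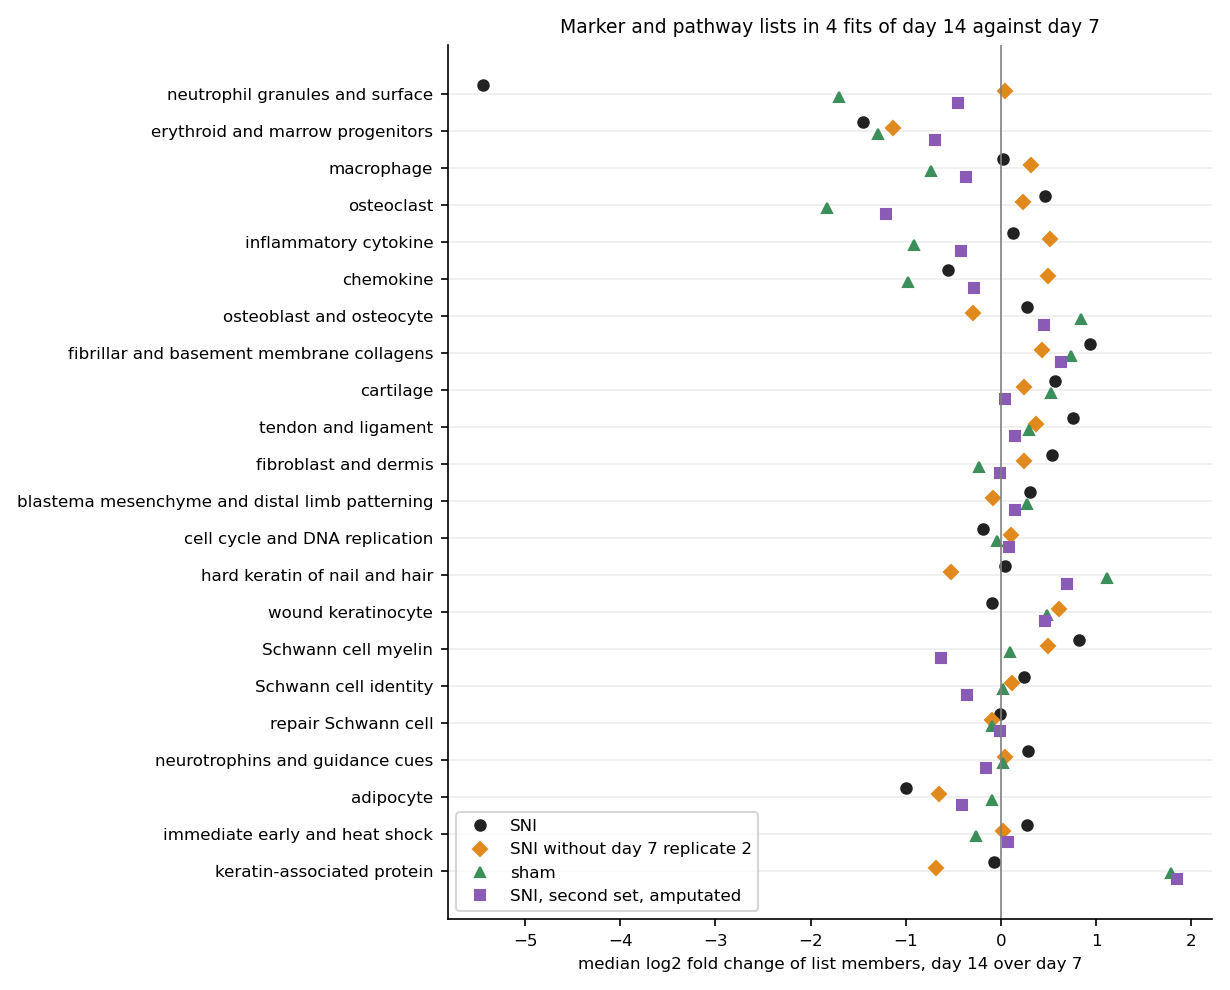
Median log2 fold change (day 14 against day 7) of 22 gene lists in 4 fits: SNI digits, SNI digits without day 7 replicate 2, sham digits, and amputated SNI digits of the second set. For the neutrophil list the first 2 medians are -5.45 and 0.04, for osteoclast genes they are 0.47 and 0.23 beside -1.83 in sham digits, and for myelin genes they are 0.82 and 0.50 beside -0.63 in the second set.

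Of all lists run, the myelin list had the most members that lay higher in every SNI day 14 library. The median was 0.82 with 16 of 18 positive, 6 were higher in every day 14 library (2.88% of all genes) and 6 had an unadjusted p under 0.05 (3.03% of all genes). Without day 7 replicate 2 the median was 0.50 with 16 of 18 positive, and 3 had an unadjusted p under 0.05 (1.05% of all genes). With the length correction and all 6 libraries the median was 0.79. The summed level of the list was 717, 398 and 617 CPM at day 7 and 680, 758 and 506 CPM at day 14. These sums overlapped between the days. Mbp, a structural protein of the myelin sheath, stood at 49.6, 18.9 and 28.6 CPM at day 7 and at 60.3, 89.9 and 51.4 CPM at day 14. Its log2 fold change was 1.05 ± 0.35, or 0.73 without day 7 replicate 2, and day 7 replicate 1 came close to the lowest day 14 library. Gjc3, a connexin of myelinating glia, was at 0.601, 0.608 and 0.244 CPM and then at 0.873, 3.88 and 1.03 CPM (1.98 ± 0.62; 0.97 without day 14 replicate 2). Pmp22, a further myelin protein, was at 97.7, 69.5 and 78.5 CPM and then at 102, 147 and 118 CPM (0.58 ± 0.21).

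Gpr37l1 and Egfl8 from the set with the smallest p had a like order of libraries. Gpr37l1, a receptor of glial cells, was at 0.781, 0.0913 and 0.0886 CPM at day 7 and at 1.17, 2.24 and 1.79 CPM at day 14 (2.38 ± 0.68; 4.22 without day 7 replicate 1). Egfl8 was at 3.24, 2.10 and 1.37 CPM and then at 3.34, 8.95 and 3.84 CPM, with day 14 replicate 2 highest as for Mbp, Gjc3 and Pmp22 (1.26, and 0.68 without it). Sham digits held Mbp at 111, 105 and 50.5 CPM and then at 73.6, 81.1 and 94.2 CPM. Of the SNI day 14 libraries only replicate 2 thus lay within the sham day 14 range. The others lay above the lowest sham day 7 library, replicate 3 at 50.5 CPM, alone. The sham myelin median was 0.10, and the difference between the changes had a median of 0.77, with 2 of 18 genes at an unadjusted p under 0.05 (1.37% of all genes) and 0 called. Without day 7 replicate 2 the median difference was 0.57, with 0 of 18 at an unadjusted p under 0.05 (1.81% of all genes).

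Schwann cell genes outside myelin were in 2 further lists. Sox10, the transcription factor of the lineage, was at 7.55, 0.700 and 4.10 CPM at day 7 and at 7.44, 2.57 and 1.59 CPM at day 14. The 13 identity genes had a median of 0.24, which was 0.12 without day 7 replicate 2, 0.074 without day 14 replicate 1 and 0.68 without day 7 replicate 1. Of 15 repair Schwann cell genes 7 were positive with a median of -0.01, which ran from -0.35 (without day 14 replicate 1) to 0.12 (without day 7 replicate 3). Gap43, a growth-cone protein that denervated Schwann cells also make, was at 3.00, 7.06 and 5.74 CPM at day 7 and at 2.87, 2.57 and 2.73 CPM at day 14 (-0.95 ± 0.38; -0.72 without day 7 replicate 2). Sox2, a transcription factor of the repair state that Merkel cells also express, was at 2.66, 1.89 and 3.26 CPM and then at 1.73, 0.798 and 1.33 CPM (-1.01 ± 0.45; -1.24 without it). Both were lower in every day 14 library, the only 2 of the 15 repair genes that were (2.04% of all genes). For Gap43 day 7 replicate 1 came close to day 14. In sham digits 3 of the 15 were lower in every day 14 library (9.39% of all genes). Neurotrophin and guidance genes had a median of 0.28 over 23 genes, and 0.04 without day 7 replicate 2.

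Most fat genes had lower values at day 14 with none called, while cell cycle genes varied by library. Adipoq, the hormone adiponectin of fat cells, was at 15.1, 87.3 and 31.9 CPM at day 7 and at 5.76, 20.8 and 18.7 CPM at day 14. The adipocyte list had a median of -0.99 with 2 of 12 positive. It was -0.65 with 1 of 12 without day 7 replicate 2 and -1.27 without day 7 replicate 1, the ends of the range over single libraries. In sham digits the adipocyte median was -0.09. In amputated SNI digits of the second set it was -0.41 with 0 of 12 positive, and edgeR called 1 lower (0.0286% of all genes). Mki67, a protein of dividing cells, was at 23.4, 13.0 and 9.66 CPM and then at 71.0, 10.2 and 6.94 CPM, so that day 14 replicate 1 alone stood high. That library also had the highest level of long transcripts of the SNI libraries, at 0.42. The 20 cell cycle genes had a median of -0.19 with 5 positive, 0.10 without day 7 replicate 2 and -0.39 without day 7 replicate 3. Mki67 had the largest log2 fold change of this list, 0.94. With the correction for transcript length no member exceeded 0.28, and the part of length was not tested further.

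The question of whether the change from day 7 to day 14 differs between nerve-injured and sham digits was tested for each gene. Among genes with a mean of at least 1 CPM and a symbol that is no predicted gene, the 5 with the smallest p were Pi16, Dusp1, Cyp26a1, Fos and Errfi1, each with a positive log2 fold change in SNI and a negative one in sham digits. Fos and Dusp1 belong to the immediate early response, which cells switch on within minutes of a stimulus. None was called: edgeR called 0 of 16084 genes, and 221 (1.37%) had an unadjusted p under 0.05. DESeq2 called 1 (Duxbl3, lower) and limma-voom with the weights called 53 (48 higher and 5 lower). Duxbl3 stood at 1.92 CPM in SNI day 7 replicate 2 and at 0 CPM in the other SNI libraries of these days. Without day 7 replicate 2 edgeR again called 0, with 290 genes (1.81%) at an unadjusted p under 0.05. Pi16, a marker of a fibroblast type that lies around vessels, stood at 187, 77.1 and 109 CPM at day 7 and at 221, 172 and 265 CPM at day 14 in SNI digits. Sham Pi16 was at 213, 238 and 188 CPM and then at 113, 110.2 and 105 CPM. The sham days did not overlap and SNI day 7 replicate 1 overlapped with day 14, and the difference of the log2 fold changes was 1.78 ± 0.42 (edgeR adjusted p = 1.00), or 1.48 without day 7 replicate 2.

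Fos, a subunit of the AP-1 transcription factor, was at 30.2, 5.20 and 11.0 CPM and then at 146, 35.5 and 18.3 CPM in SNI digits. In sham digits it was at 77.7, 67.1 and 80.4 CPM and then at 20.1, 19.9 and 6.69 CPM. Every sham day 14 library was lower, while SNI day 14 replicate 1 was higher than all other libraries of both surgeries (difference 4.37 ± 1.21). Dusp1, a phosphatase that switches off MAP kinases, was at 86.3, 48.0 and 46.6 CPM and then at 183, 127 and 59.9 CPM in SNI digits. In sham digits it was at 165, 146 and 144 CPM and then at 71.5, 63.2 and 43.4 CPM (difference 2.38 ± 0.57). Errfi1, an inhibitor of the EGF receptor, was at 70.9, 62.8 and 92.0 CPM and then at 101, 74.2 and 110.5 CPM in SNI digits, and its difference was 1.04 ± 0.29. Cyp26a1 had a difference of 2.18 ± 0.57. Over the 15 immediate early and heat shock genes the SNI median was 0.27 with 12 positive, and 0.02 without day 7 replicate 2, beside a sham median of -0.26. The SNI median ran from -0.0060 (without day 14 replicate 1) to 0.63 (without day 7 replicate 1).

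The promoters of Fos and Dusp1 are shown because these 2 genes of the immediate early list were among the 5 named for this test. They are the 250 bases before the start site in RefSeq on GRCm38.p6, Fos at chr12:85473640-85473889 on the plus strand and Dusp1 at chr17:26508473-26508722 on the minus strand, written 5′ to 3′ along the gene. Capitals mark TGACG, the core of the cyclic AMP response element, searched on both strands (TGACG or CGTCA). Fos held 2 matches and Dusp1 held 3, of which 2 overlap as the full palindrome TGACGTCA; 17.8% of the 32851 promoter windows held at least 1.
Fos: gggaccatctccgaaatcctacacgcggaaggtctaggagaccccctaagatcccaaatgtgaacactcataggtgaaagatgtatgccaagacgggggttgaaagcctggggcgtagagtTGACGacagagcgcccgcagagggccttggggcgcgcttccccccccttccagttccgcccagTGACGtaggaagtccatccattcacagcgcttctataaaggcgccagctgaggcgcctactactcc
Dusp1: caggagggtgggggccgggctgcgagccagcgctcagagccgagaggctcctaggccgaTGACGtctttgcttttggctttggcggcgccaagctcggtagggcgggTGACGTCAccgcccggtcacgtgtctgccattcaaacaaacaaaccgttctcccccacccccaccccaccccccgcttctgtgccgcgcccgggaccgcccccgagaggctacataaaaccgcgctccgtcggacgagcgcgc

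The same days were sampled again in the second set, and there the spread estimated over all groups was smaller. The biological coefficient of variation was 0.17, against 0.393 in the time course (0.361 without SNI day 7 replicate 2). It is 1 value over all 12 libraries, the unamputated ones included. The ribosomal protein share of the amputated libraries was 5.81% to 7.62%. Some lists still varied within the amputated groups. Summed collagen levels were 18561, 4307 and 17400 CPM at day 14, and summed osteoclast levels 2062, 634 and 549 CPM at day 7. In amputated SNI digits edgeR called 101 of 17475 genes higher at day 14 (0.578%) and 5 lower (0.0286%), while 50.2% had a positive log2 fold change and 2327 (13.3%) an unadjusted p under 0.05. Keratin-associated proteins led the genes that rose: Krtap5-1 stood at 4.27, 2.49 and 2.45 CPM at day 7 and at 25.8, 13.3 and 10.7 CPM at day 14 (2.43 ± 0.36; edgeR adjusted p = 0.0110). Krtap29-1, Krtap5-4, Krtap5-3 and Krtap5-5 rose as well, by 2.24 to 2.36 on the log2 scale, and 16 of the 57 genes of this family tested were called, all higher. Of 17 hard keratin genes 2 were called higher, among them Krt82, at 19.5, 19.7 and 17.4 CPM and then at 69.8, 58.2 and 48.9 CPM (1.64 ± 0.17; edgeR adjusted p = 0.00336). Krt17, a wound keratin, rose by 0.73 ± 0.11 (edgeR adjusted p = 0.0109). The count of calls depended on 2 of the day 7 libraries: edgeR called 106 in all, 3 without amputated day 7 replicate 2 (3 of them among the 106) and 17 without day 7 replicate 3 (16 of them), but 83 without day 7 replicate 1 (66 of them). Leaving out day 14 replicates 1, 2 and 3 in turn gave 74, 119 and 106.

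The genes that fell in the second set included Plin4, a coat protein of fat droplets, at 28.3, 36.2 and 41.9 CPM at day 7 and 20.8, 17.2 and 17.5 CPM at day 14 (-0.94 ± 0.16; edgeR adjusted p = 0.0178). Grk3, a receptor kinase, fell by 0.79, Csf2rb2, a cytokine receptor subunit, by 0.69, and Arhgap45, a GTPase-activating protein of blood cells, by 0.60. Krt82 in the time course had a log2 fold change of -0.20 ± 0.87 in SNI digits, and Plin4 of -0.61 ± 0.40. Neither was called there.

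Unamputated SNI digits of the second set shared the keratin-associated change. There 47.7% of genes had a positive log2 fold change, and edgeR called 53 genes higher (0.303%) and 0 lower (0%), with 869 genes (4.97%) at an unadjusted p under 0.05, and 7 of the 53 were keratin-associated proteins, whose median was 1.52 beside 1.85 in amputated digits. Krtap5-1 in unamputated digits was at 3.93, 2.75 and 4.68 CPM at day 7 and at 15.8, 10.4 and 17.6 CPM at day 14. For the difference between amputated and unamputated digits edgeR called 0 of the 17475 genes and DESeq2 called 17, and in 1092 (6.25%) the unadjusted edgeR p was under 0.05.

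The changes in the SNI time course and in the second set were set side by side, and the 2 tables were normalised separately. In 14863 genes tested in both, the log2 fold changes had a Pearson r of -0.0554 and a Spearman rho of -0.251 across genes, which are not independent, and -0.189 and -0.18 without day 7 replicate 2. The 2 tables share no library. The sham comparison of the time course had an r of 0.315 and a rho of 0.485 with the SNI comparison over the same genes, and 0.0452 and 0.234 without day 7 replicate 2. Both comparisons also followed transcript length, with a rho of 0.521 in SNI digits (0.148 without day 7 replicate 2) and 0.258 in sham digits. With the SNI changes corrected for length and day 7 replicate 2 left out, r was 0.0227 and rho 0.167 with sham. The part of length in these correlations was not tested. Non-overlap took 8.78% of all genes in the higher and 7.75% in the lower direction in the second set. Of the 421 shared genes higher in every SNI day 14 library, 14 (3.33%) were also higher in every amputated day 14 library of the second set, which is 1.04% of the 1347 found there, and 35 (8.31%, and 3.12% of 1120) were lower in every one. Of the 285 shared genes lower in every SNI day 14 library, 26 (9.12%, and 2.32% of 1120) were also lower there and 22 (7.72%, and 1.63% of 1347) were higher. Osteoclast genes had a median of -1.21 in the second set, beside -1.83 in sham and 0.47 in SNI digits of the time course, and Ctsk was at 684, 155 and 119 CPM and then at 148, 93.8 and 171 CPM. Its high value came from amputated day 7 replicate 1 alone. Myelin genes had a median of -0.63 with 1 of 18 positive, while the SNI time course had 0.82 with 16 of 18. Mbp was at 36.3, 39.1 and 74.6 CPM and then at 32.4, 35.8 and 32.6 CPM, with day 7 replicate 3 highest. In the second set unamputated digits held Mbp at 103 to 137 CPM.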

How the data were processed

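Poly(A) RNA of whole digit tissue was sequenced from directional libraries. The authors deposited 2 tables of whole-number read counts per gene, unnormalised as the values show. GRCm39 is the build per the submitters' processing notes; for the aligner, the counting tool and the strand setting the sources used here give nothing. The table with 17 time-course libraries and that with 12 libraries were fitted separately, and groups were taken from the labels.

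Genes were kept by filterByExpr (minimum count 10, minimum total 15), which left 16084 and 17475. Counts were scaled by TMM and tested with edgeR 4.0.16 (quasi-likelihood, robust) in R 4.3.3, with Benjamini-Hochberg adjustment over all tested genes and a threshold of 0.05. All groups of a table shared 1 estimate of the spread. Values after ± are standard errors of log2 fold changes, calculated back from the test as the absolute log2 fold change divided by the square root of F. A median log2 fold change describes a gene list and was not tested. DESeq2 1.42.0, limma 3.58.1 (voom with sample quality weights), RLE size factors, no filter, a replicate block, fits of 2 groups alone and leaving out each library were the alternatives. A correction for transcript length, as an offset per library, was chosen after seeing the data. Transcript lengths were matched by symbol for 15481 of the 16084 genes, and 55141 of the 55487 gene identifiers of the second table had a symbol.

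Named genes were the 12 in each direction with the smallest p among genes with a mean of at least 1 CPM, no overlap between days, the same sign without day 7 replicate 2 and a symbol that is no predicted gene. To these came up to 6 members of each list, the 5 smallest p of the difference from sham under the same CPM and symbol rules, up to 5 called genes in each direction of the second set, and the 10 genes with the largest ratio in day 7 replicate 2. Krt17, Krt82 in the second set, Elovl3, Scd1, Gm2506, Hist1h2bk and Duxbl3 were named after their values were seen. The libraries and gene lists were chosen with earlier results of these data known. The values of a further gene named by the rule are not reported here. The edgeR fit was also run on simulated counts with known fold changes, and the outcome is not reported here. Those counts were drawn gene by gene and lacked the differences in composition between the SNI libraries.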

Additional observations from a re-analysis of the deposited data

How the results depend on the processing

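The SNI comparison kept its count of 0 called genes in edgeR under RLE size factors, without the filter on low counts, in a fit of its 2 groups alone, with the length correction, and without each library in turn (range 0 to 0). DESeq2 called 1 gene and limma-voom with sample quality weights 14. For the difference from sham these 2 tools called 1 and 53 genes, and edgeR called 0 to 0 without each library in turn. In the second set the 106 called genes became 452 in DESeq2 (105 of the 106 among them) and 70 in a fit of the 2 groups alone (60 of the 106). They ranged from 3 to 119 without single libraries, with 17 without amputated day 7 replicate 3. For amputated minus unamputated digits DESeq2 called 17. With the replicate number as a block edgeR called 0 genes in the SNI comparison and 110 in the second set; same-numbered SNI libraries deviated together with r = 0.624, 0.12 and -0.281 for numbers 1, 2 and 3, so the numbers were not taken to pair the samples.

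Several uncalled genes changed the sign of their log2 fold change with the setting, and the cause was not tested. With limma-voom and weights the values were Prtn3 0.91, Elane 0.85, Ctsg 1.31, Ms4a3 2.56, Mpo 1.20, Acp5 -1.55, Ctsk -1.72, Dcstamp -2.16, Cd68 -0.33, Adgre1 0.49, Lyz2 0.26, Sp7 -0.025, Col1a1 -0.23, Krt34 0.96, Krt82 0.50, Krt16 0.13 and Errfi1 -0.11. With the length correction and day 7 replicate 2 left out together, they were Prtn3 0.84, Elane 0.66, Ctsg 1.18, Ms4a3 1.51, Mpo 0.97, S100a8 0.94, S100a9 0.62, Adgre1 0.34, Lyz2 0.26, Bglap -0.20, Sp7 -0.29, Col1a1 -0.11, Col1a2 -0.075, Krt31 -0.45, Krt16 2.22, Msx1 -0.17 and Msx2 -0.43. With the replicate block they were Krt34 0.28, Krt82 0.026 and Krt16 0.14, with the length correction alone Krt16 0.17, with RLE size factors Krt6a -0.011 and S100b -0.0058, and with DESeq2 Krt6a -0.011 and S100b -0.0058. Leaving out single libraries gave the ranges Prtn3 -6.33 to 0.94, Elane -6.25 to 0.80, Ctsg -5.80 to 1.31, Ms4a3 -6.75 to 1.65, Mpo -5.21 to 0.98, S100a8 -5.12 to 0.76, S100a9 -5.38 to 0.45, Acp5 -0.79 to 0.66, Ctsk -0.70 to 0.95, Dcstamp -0.37 to 1.42, Cd68 -0.19 to 0.64, Adgre1 -0.75 to 0.31, Lyz2 -1.98 to 0.31, Bglap -0.32 to 2.07, Sp7 -0.54 to 1.55, Col1a1 -1.35 to 2.63, Col1a2 -0.40 to 2.00, Krt31 -0.95 to 1.44, Krt34 -0.70 to 1.55, Krt82 -0.82 to 1.25, Krt6a -0.98 to 1.18, Krt16 -2.00 to 2.01, Sox10 -0.99 to 0.68, S100b -0.050 to 0.19, Msx1 -0.19 to 0.94, Msx2 -0.44 to 0.82, Mki67 -0.84 to 1.40 and Top2a -0.074 to 0.89. Each SNI library held at least 38184080 counts, and the biological coefficient of variation was 0.393.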

Other observations

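Lipid genes of the sebaceous gland, a list chosen after the values were seen, had lower values at day 14 in the SNI digits, and their medians were alike with and without day 7 replicate 2. Elovl3, which lengthens fatty acids, stood at 252, 427 and 252 CPM at day 7 and at 105, 125 and 163 CPM at day 14 (log2 fold change -1.24 ± 0.37, and -0.99 without day 7 replicate 2). Scd1, which desaturates them, stood at 3086, 3028 and 3831 CPM and then at 2334, 2439 and 2276 CPM (-0.50 ± 0.23, and -0.60 without it). The days did not overlap for either gene, and neither was called (edgeR adjusted p = 0.876). Over the 14 genes of the list, which includes Soat1, the median was -0.33 with 3 positive, and -0.32 with 2 positive without day 7 replicate 2. The summed level was 5261, 5886 and 6324 CPM at day 7 and 4324, 4405 and 4327 CPM at day 14. In sham digits the median was -0.37 and the sums were 5261, 5913 and 5870.5 CPM and then 4394, 5208 and 4845 CPM, again with no overlap. In amputated SNI digits of the second set the median was -0.20, and the sums of 5895, 7079.9 and 7266 CPM and then 5405, 6789 and 5500.2 CPM overlapped.

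Pigment cell genes had a median of -0.49 over 9 genes in the SNI digits, with 1 positive, and of -0.65 with 0 positive without day 7 replicate 2. Their summed level was 44.3, 32.5 and 45.9 CPM at day 7 and 42.8, 26.6 and 42.1 CPM at day 14. The days thus overlapped, and at day 14 only replicate 2 was low. In sham digits the median was -0.29 and in amputated digits of the second set 0.33 over 7 genes.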
